A study of Mus musculus with 4 samples.

Results

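Zfp352, Spz1, Ubtfl1, Trim43a, Trim43b and Trim43c are genes of the 2-cell (2C) embryo that do not belong to the large Zscan4, Tcstv, Tdpoz and Usp17l families, and their transcripts were followed here in mouse ES cells after Rif1 depletion. The genes were picked with earlier results of these arrays known, and their probes were found by name, as every non-control probe that carries one of these 6 names among the 30199 names of the array. The names matched 8 probes of 39429, with 3 probes for Trim43c, 2 for Zfp352 and 1 each for Spz1, Ubtfl1 and Trim43b. Trim43a had 0 probes under its own name.

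RNA of E14tg2a cells, a feeder-free line of mouse ES cells grown with serum and leukemia inhibitory factor, was measured on 4 one-color Agilent arrays that shared a slide. The question was which transcripts change when Rif1, a regulator of replication timing and DNA repair, is depleted by siRNA. One array read untreated cells (0 h) and another cells 72 h after transfection with control siRNA. The remaining arrays read cells that had received the mRif1 siRNA #2 together with the siRNA NC#1, both directed against Rif1. These cells were taken 48 h or 72 h later. All arrays came from the same line, whose genotype the sample labels do not give. Rif1 was depleted transiently by siRNA, and the Rif1 gene itself was not deleted. Each condition had 1 array, so there is no replicate error, no p-value and no test for any difference below, and precision is limited by this number of arrays.

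The 2C embryo is the stage at which the mouse zygote starts its own transcription, and many transcripts of this stage are shut off again within the next divisions. In ES cell cultures the same transcripts are known to appear in a small and changing share of cells. Zfp352 encodes a zinc finger protein of early embryos, Spz1 a basic helix-loop-helix zipper protein known from the testis, Ubtfl1 a high mobility group protein related to the Pol I factor Ubtf, and the Trim43 genes encode tripartite motif proteins with a RING domain at the N-terminus.

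The level of a probe is its processed signal divided by the 75th percentile of its array. A probe whose signal the software did not find well above background is called dim. A fold change that sets a bright spot against a dim one is a lower bound, for which the dim side was taken as that array's floor (the lowest level still well above background) or as the probe's own level where that was higher. Levels of different probes are not comparable with each other. The targeted gene served as the check of the labels. The single Rif1 probe gave 5.55 without treatment, 5.42 after control siRNA, and 2.15 and 4.15 after 48 h and 72 h of Rif1 siRNA, lower on both Rif1 siRNA arrays. Spots well above background made up 58.8% to 74.1% of an array, with both Rif1 siRNA arrays at the upper end. The floor was 0.0236 on the untreated array, 0.0159 with control siRNA, 0.00779 at 48 h and 0.00543 at 72 h, so the bounds are set by the reference arrays. Median raw brightness was alike, from 149 to 157 over the 4 arrays.

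The probe sequences are shown because the probes of genes with more than 1 probe gave different answers. Each is a 60-base DNA probe in the direction of the transcript, with positions on mm9 as the array files give them. The capitals in the first one mark its last letters, TGA.
Zfp352, bases from 1794 of the transcript, chr4:89891912-89891971, plus strand: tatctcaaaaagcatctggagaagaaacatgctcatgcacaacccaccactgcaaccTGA
Zfp352, first 30 bases of the probe from 2152, chr4:89892270-89892329, plus strand: aatcagatctgtctcccttttagctccttt
Spz1, bases from 552, chr13:93345576-93345635, minus strand: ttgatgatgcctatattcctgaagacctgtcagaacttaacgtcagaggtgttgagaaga
Ubtfl1, first 30 bases of the probe from 2258, chr9:18215566-18215625, plus strand: catatgtttgtatagttaagttgaaattta
The Zfp352 probe from base 1794 has no inner stop codon in any of its 3 frames, 1 of which ends on the letters TGA. The other Zfp352 probe begins 358 bases further along both the transcript and the chromosome. Whether a probe lies in coding sequence or in a UTR was not read from an annotation here. None of these 4 probes shared a run of 16 bases with any other probe of the array or with any of 32851 RefSeq promoter windows of 300 bases.

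The 4 probes of the Trim43 genes are shown for the same reason, with capitals marking 16 bases that also occur elsewhere in the genome.
Trim43c, bases from 359, chr9:88735196-88735255, plus strand: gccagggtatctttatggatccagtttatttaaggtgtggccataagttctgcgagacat
Trim43c, bases from 537, chr9:88735374-88735433, plus strand: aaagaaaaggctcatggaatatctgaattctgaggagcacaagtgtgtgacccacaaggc
Trim43c, probe bases 31 to 60 of the probe from 1810, chr9:88742849-88742908, plus strand: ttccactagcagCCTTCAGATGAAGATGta
Trim43b, probe bases 31 to 60 of the probe from 2009, chr9:88979655-88979714, minus strand: atattaagggaTGGAGAGATGGCTCAGagg
The probe from base 537 is also assigned in the array files to the transcripts of Trim43a and Trim43b, so that it is the only probe that bears on Trim43a and cannot tell the 3 genes apart. The capitals of the Trim43b probe occur in 51 of the 32851 promoter windows and those of the Trim43c probe from 1810 in 31. Counting every run of 16 bases and both strands, each of these probes matched 63 windows. The probes from 359 and 537, with 1 frame free of stop codons each, matched 0 windows. The mm9 positions of the Trim43c and Trim43b probes span 245 kb of chromosome 9, so these genes are not scattered from one another, whereas the other members lie on chromosomes 4 and 13 and at another place of chromosome 9.

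Against control siRNA at 72 h, 5 of the 8 probes passed 2-fold upward after 72 h of Rif1 siRNA, and 0 passed it downward. They belong to Zfp352, Spz1, Trim43b and Trim43c, whereas Ubtfl1 had a lower bound of 1.81 and the 3′ probes of Zfp352 and Trim43c stayed below 2-fold. Of all 27702 probes examined in this comparison, 2.83% passed 2-fold upward and 1.00% downward. All 8 probes passed the filter on low values, but 5 of them were dim on both reference arrays and passed only through the Rif1 siRNA arrays. These were thus selected as bright on the Rif1 siRNA arrays. That favors a higher fold without forcing one, and their number gives no support by itself. With normexp background correction, which adds an offset of 50 to every signal, 1 of the 8 probes was over 2-fold higher, that of Zfp352 from base 1794 at no less than 6.65-fold. With quantile normalization 4 of the 8 were, since the bound of the Trim43c probe from base 359 was 1.88, and at 48 h 3 of the 8 in place of 4. Array signals come from whole cultures, in which more cells expressing a gene and more RNA per cell cannot be told apart.

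**Figure D1:**
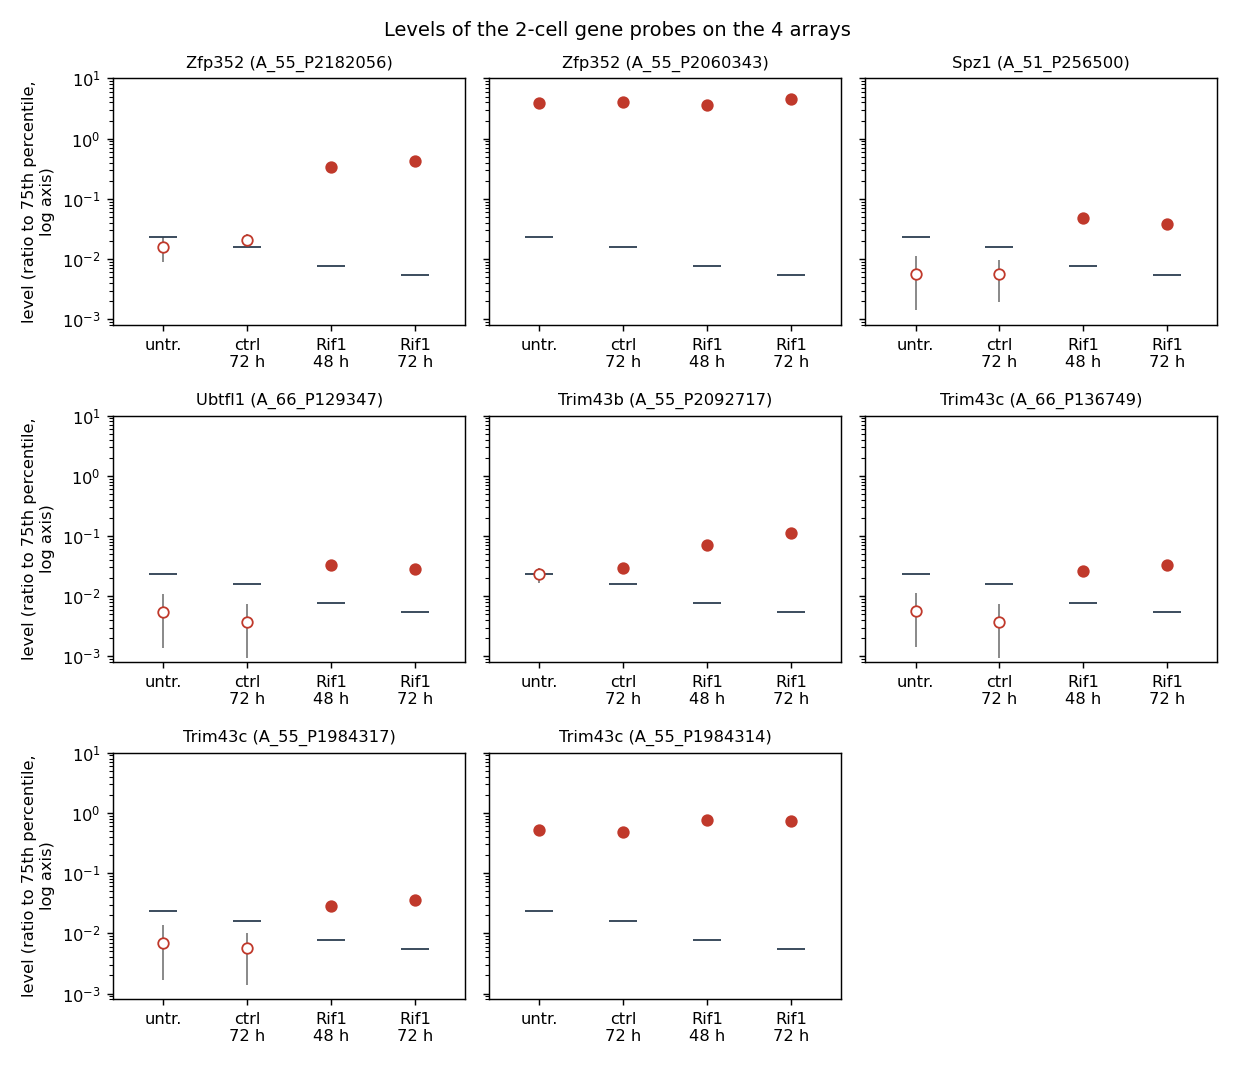
Levels of the 8 probes (ratio to the 75th percentile of the array, log axis) on the untreated array, the control siRNA array (72 h) and the Rif1 siRNA arrays (48 h, 72 h). Filled points are well above background, open points are dim, vertical lines are the software's error of the single spot (cut at the lower end for the log axis) and dashes mark the floor of each array. The probes of Zfp352 from base 2152 and of Trim43c from base 1810 are bright on all 4 arrays, and the others are highest on the Rif1 siRNA arrays.

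Zfp352 was the member with the largest bound. The probe from base 1794 read 0.0161 in untreated cells and 0.0207 with control siRNA, both dim, and 0.344 and 0.421 at 48 h and 72 h of Rif1 siRNA. Both Rif1 siRNA arrays were thus above both reference arrays. For this probe and those below, the share of all probes with that order was not counted. Its raw brightness was 67.3 and 67.5 on the reference arrays over a local background of 34.5 and 37, and 507 and 609 on the Rif1 siRNA arrays over 34 and 36. The fold over control siRNA was at least 20.4 at 72 h and at least 16.7 at 48 h, and that over untreated cells at least 17.9 at 72 h. Against control siRNA the dim side was the probe's own level, 0.0207, with a spot error of 24.3%. The values 20.4 and 16.7 are thus plain ratios to a dim spot and not strict bounds. Between 48 h and 72 h it differed by 0.29 (log2), with a spot error of 0.20.

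The other probe of the same gene, from base 2152, did not follow. It read 3.91 without treatment, 4.13 with control siRNA, 3.56 at 48 h and 4.48 at 72 h. These levels overlapped between the reference arrays and the Rif1 siRNA arrays, with one Rif1 siRNA array below both references and the other above them. The difference from control siRNA was 0.12 ± 0.20 (log2, spot error) at 72 h and -0.22 ± 0.20 at 48 h. The spot error is the software's estimate for a single spot and covers technical error only. The 2 probes of Zfp352 thus disagree, the first being at least 20.4-fold higher and the second 1.09-fold, and whether both read the same transcript was not tested.

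**Figure D2:**
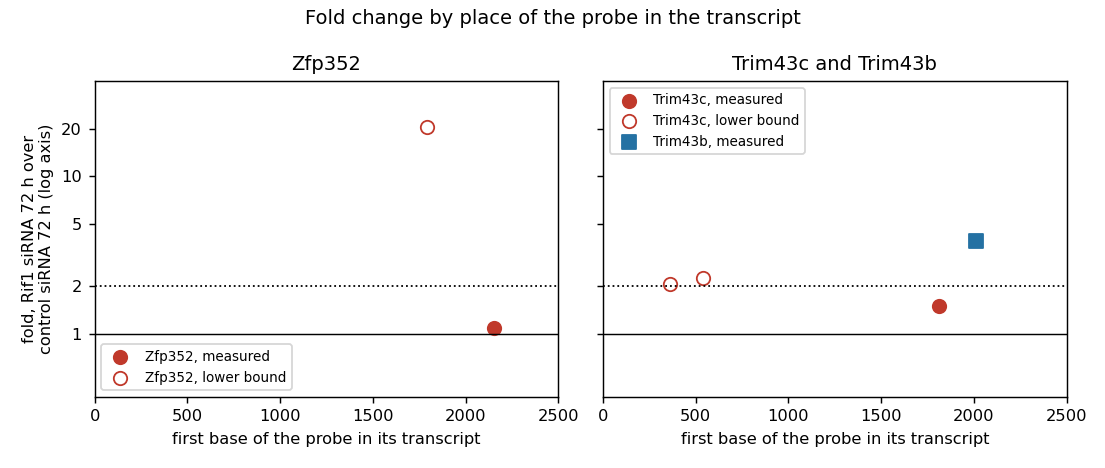
Fold of Rif1 siRNA over control siRNA at 72 h (log axis) against the first base of the probe in its transcript, for Zfp352 and for Trim43c with Trim43b. Filled symbols are measured on both arrays, open symbols are lower bounds and the dotted line marks 2-fold. For Zfp352 the probe from base 1794 is at least 20.4-fold higher and the one from base 2152 is 1.09-fold, and for Trim43c the probe from base 1810 is the lowest of 3.

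Spz1 and Ubtfl1, the other members that encode DNA-binding proteins, were dim on both reference arrays and had their highest level at 48 h. Spz1 read 0.00570 without treatment, 0.00572 with control siRNA, 0.0485 at 48 h and 0.0389 at 72 h. The raw brightness of its spot was 43.0 and 57.3 on the reference arrays and 124 and 105 on the Rif1 siRNA arrays, with a local background of 33 to 37. Spz1 was higher by at least 3.06-fold at 48 h and at least 2.45-fold at 72 h over control siRNA, and by at least 1.65-fold at 72 h over untreated cells. Between the Rif1 siRNA arrays it differed by -0.32 ± 0.22 (log2, 72 h minus 48 h, spot error).

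Ubtfl1 read 0.00552 without treatment, 0.00370 with control siRNA, 0.0331 at 48 h and 0.0286 at 72 h. The raw brightness was 47.5 and 46.8 on the reference arrays and 98.7 and 90.2 on the Rif1 siRNA arrays, over a local background of 35 to 37. Both Rif1 siRNA arrays were above both references, yet the bound was at least 2.09-fold at 48 h and at least 1.81-fold at 72 h, on either side of the 2-fold threshold. The time difference was -0.21 ± 0.23 (log2), no larger than the spot error.

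The Trim43b probe read 0.0233 in untreated cells, where it was dim, 0.0294 with control siRNA, 0.0709 at 48 h and 0.114 at 72 h. It is higher on both Rif1 siRNA arrays than on both references. The fold over control siRNA was 3.87 at 72 h (log2 difference 1.95 ± 0.29, spot error) and 2.41 at 48 h (1.27 ± 0.29), and over untreated cells at least 4.83 at 72 h. At 72 h it was 0.68 ± 0.21 (log2) above 48 h, which was the largest difference between these times among the 8 member probes. The 8 other probes of the array that share a run of 16 bases with it lay between 0.89- and 1.06-fold at 72 h.

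The Trim43c probes near the start of the transcript were dim on the reference arrays and bright on both Rif1 siRNA arrays. The one from base 359 read 0.00563, 0.00372, 0.0261 and 0.0327 on the untreated, control siRNA, 48 h and 72 h arrays. The one from base 537, which stands for all 3 Trim43 genes, read 0.00679, 0.00563, 0.0280 and 0.0360 in the same order. Against control siRNA they were higher by at least 2.06- and 2.27-fold at 72 h and by at least 1.64- and 1.76-fold at 48 h. The longest run that these probes have in common is 5 bases.

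The Trim43c probe from base 1810 was bright on all arrays, with 0.527 without treatment, 0.491 with control siRNA, 0.771 at 48 h and 0.735 at 72 h. Both Rif1 siRNA arrays read above both references, an order not counted over all probes. The fold over control siRNA was 1.50 at 72 h (log2 difference 0.58 ± 0.20, spot error) and 1.57 at 48 h (0.65 ± 0.20). For comparison, control siRNA and untreated cells differed with an SD of 0.256 (log2) over 22548 probes, which is no replicate error. The 1 other probe that shares a run of 16 bases with it, of Btbd16, was at 1.31-fold at 72 h and is named here after its value was seen. Which transcripts the probe reads was not tested.

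Other tripartite motif genes served as the comparison for the Trim43 genes. Of 68 probes that passed, from a list of 65 genes, 1 was over 2-fold higher at 72 h and 3 were over 2-fold lower, with a median log2 difference of -0.06. Among the probes that passed, the highest was one of Trim12c at 2.00-fold and the lowest one of Trim14 at 0.45-fold. A Trim30d probe that did not pass the filter was higher by at least 3.39-fold at 72 h. It was dim on both reference arrays and at 48 h of Rif1 siRNA, so this value rests on the 72 h array alone. For Ubtfl1 the comparison was the Pol I machinery that its relative Ubtf serves. Of 17 probes that passed, from 13 genes, 0 were over 2-fold higher or lower, and the Ubtf probes lay at 1.00- and 1.04-fold.

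**Figure D3:**
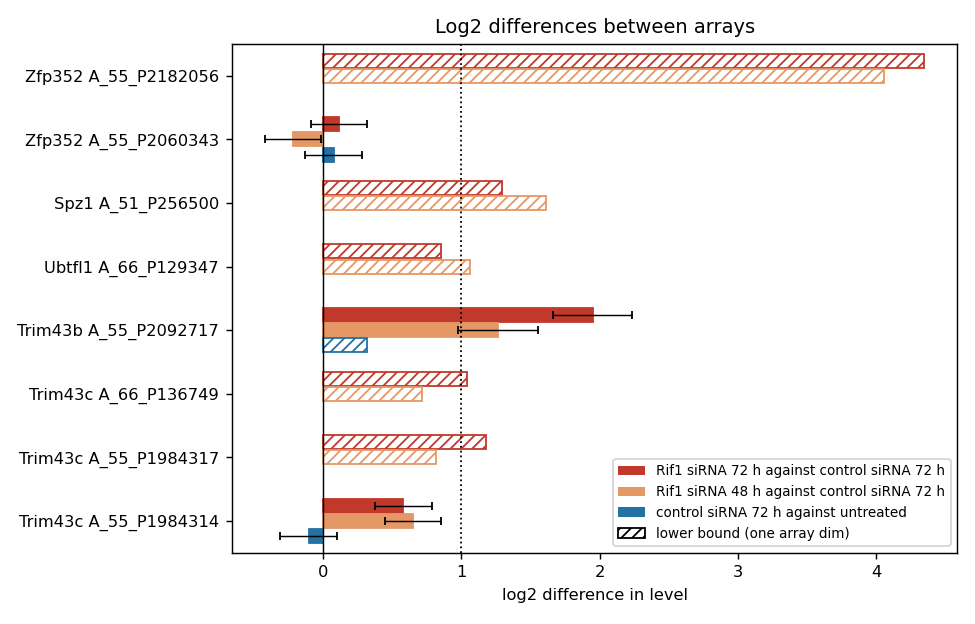
Log2 differences of the 8 probes for Rif1 siRNA at 72 h and 48 h against control siRNA, and for control siRNA against untreated cells. Hatched bars are lower bounds, filled bars are measured on both arrays with the spot error, the dotted line marks 2-fold, and a missing bar means that the probe was dim on both arrays. Zfp352 from base 1794 reaches bounds of about 4 at both times, and no probe passes the line for control siRNA against untreated cells.

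Against the same control siRNA array, 4 of the 8 probes were over 2-fold higher at 48 h and 0 were lower. This comparison had a background of 3.17% of 27702 probes over 2-fold higher and 1.19% lower, and it is not matched in time, since the control was harvested at 72 h. Of the 4, 3 were over 2-fold higher at 72 h too, namely those of Zfp352 from base 1794, Spz1 and Trim43b. Ubtfl1 passed the threshold at 48 h, and both Trim43c probes near the transcript start passed it at 72 h. The 48 h and 72 h comparisons share their control array, so they are not independent of each other. Between the Rif1 siRNA arrays, all 8 probes were measured on both sides and 0 differed over 2-fold, beside 0.491% of 27702 probes over 2-fold higher at 72 h and 0.679% lower.

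Control siRNA against untreated cells shows what went with transfection and 72 h of culture. In this comparison 0 of the 8 probes were over 2-fold higher, beside 0.585% of 27701 probes. Of the 8, 5 had no fold because they were dim on both arrays, Trim43b had a bound of at least 1.25-fold, and the 3′ probes of Zfp352 and Trim43c were at 1.06- and 0.93-fold. The clustered 2C genes, for comparison, had 10 of 23 probes over 2-fold higher here. Against untreated cells, Rif1 siRNA at 72 h put 2 of the 8 probes over 2-fold higher, those of Zfp352 from base 1794 and Trim43b, beside 2.55% of 27701 probes. The bounds of Spz1, Ubtfl1 and the Trim43c probes near the transcript start were from 1.22 to 1.65 in this comparison, in which the floor of the untreated array sets them.

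Among the clustered 2C genes, which are the Zscan4, Tcstv, Tdpoz and Usp17l families with 15 gene names, 20 of 23 probes were over 2-fold higher at 72 h against control siRNA and the median log2 difference was 4.32, with 5 lower bounds among the probes. The 8 probes of the members also include 5 lower bounds, and had a median of 1.11 and a range from 0.12 to 4.35. The bounds set the median of the members, which was 2.72 with dim signals taken as given, while that of the clustered probes stayed at 4.32. The log2 differences of the clustered probes ranged from -0.86, for a Tdpoz1 probe, to 5.12, for Tcstv3. Of the 23 clustered probes, 5 were dim on both reference arrays and passed the filter only through the Rif1 siRNA arrays. As the lists were put together with results of these arrays known, the difference between them was not tested.

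A list of other genes of the 2C stage that stand alone, with 13 probes of 9 genes, had 8 probes that passed. Of these, 5 were over 2-fold higher at 72 h against control siRNA and 0 lower. Over all 27702 probes of this comparison, 2.83% were over 2-fold higher and 1.00% lower. Lmx1a, a homeobox gene, was at 17.5-fold with levels of 0.0337 with control siRNA and 0.591 at 72 h. Abcb5, a membrane transporter gene, had 2 probes that passed and that were higher by at least 10.8- and 6.40-fold. These were dim on both reference arrays and passed the filter only through the Rif1 siRNA arrays. That selection favors a higher fold, so they give no support by themselves. Both probes of Calcoco2, an autophagy receptor gene, were at 2.66- and 2.64-fold. Ddit4l was at 1.16-fold, while Chit1 and Cml2 have no fold, since they were dim with control siRNA and their levels at 72 h of Rif1 siRNA, 0.0103 and 0.0101, lay under the floor of the control siRNA array.

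**Figure D4:**
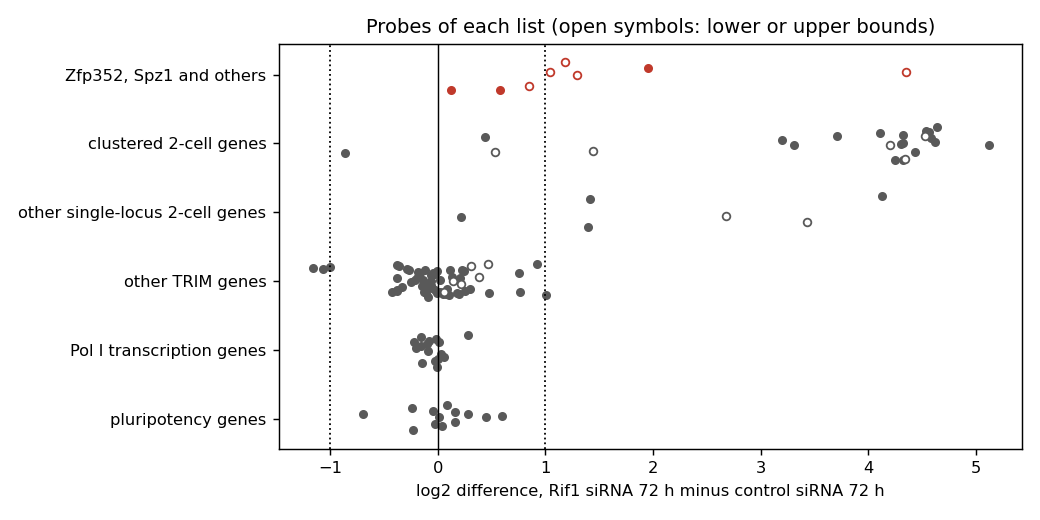
Log2 differences of single probes, Rif1 siRNA minus control siRNA at 72 h, for the members (red) and for the comparison lists (gray). Open symbols are bounds, dotted lines mark 2-fold either way and vertical scatter only separates points. The members spread from 0.12 to 4.35, and the Pol I and pluripotency probes all lie within 2-fold.

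Markers of the cells were examined beside these results. Of the 13 probes for 8 pluripotency genes, 13 were well above background on both Rif1 siRNA arrays and with control siRNA and 12 in untreated cells. At 72 h against control siRNA 0 changed over 2-fold, with log2 differences from -0.69 to 0.59. Their summed level was from 232 to 249 on the 4 arrays. Such a sum, here and below, is ruled by the brightest probes and can hide shifts of single probes. Spz1 is known from the testis, and of the 4 germ cell marker probes (Prm1, Prm2, Tnp1 and Acrv1) 3 were bright on every array, with a summed level from 0.440 to 0.517, with 0 over 2-fold higher and Acrv1 dim throughout. The 5 trophoblast probes had a summed level from 3.84 to 4.38, and 1 of them, Cdx2, was 2.11-fold higher at 72 h. The 5 primitive endoderm probes summed to 1.18 to 1.84, with the lowest sum at 72 h of Rif1 siRNA. The 4 fibroblast probes summed to 0.668 on both reference arrays, to 0.959 at 48 h and to 1.17 at 72 h, with Col1a1 and Col1a2 at 1.76- and 1.77-fold and Postn dim on both 72 h arrays. The part of these changes in the values of the members was not tested.

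The upstream sequence was looked at because several members were higher together. RefSeq promoter windows (GRCm38.p6) were found by symbol for 4 of the 6 members, namely Zfp352, Spz1, Ubtfl1 and Trim43a. In the 250 bases before the start, the letters TATAA on either strand occur once for Zfp352 and once for Ubtfl1, and 0 times for Spz1 and Trim43a, beside 22.8% of 32851 windows with at least 1 match. The letters TGCACAC, known from binding of Zscan4, matched 0 times in all 4 and in 3.67% of windows. The letters TGATTNNATCA, known from binding of Dux, matched 0 times in all 4 and in 0.177% of windows. Both strands were searched, and no match says only that these letters are not in this window. The Zfp352 window is shown because of its repeated letters, with GACAACACAC in capitals.
Zfp352 upstream, chr4:90218570-90218819, plus strand, GRCm38.p6: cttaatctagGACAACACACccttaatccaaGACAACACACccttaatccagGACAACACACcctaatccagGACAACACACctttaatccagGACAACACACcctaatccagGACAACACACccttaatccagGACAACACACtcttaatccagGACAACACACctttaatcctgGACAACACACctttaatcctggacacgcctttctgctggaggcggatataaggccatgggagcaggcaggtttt
These 10 letters were picked after reading the sequence and stand 9 times in it at steps of 20 or 21 bases. Either strand of them occurs in 13 other windows, and more than once in 1 of these.

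For the probes bright on all 4 arrays, the nearest patterns were sought by the root mean square distance of log2 levels around their mean over the 4 arrays, among 22518 probes. The Zfp352 probe from base 2152 was closest to probes of Mll5, Mkrn3, Snapc1 and Phc3 and 1 probe without a gene symbol, at distances from 0.0087 to 0.016. The Trim43c probe from base 1810 was closest to 1700020N15Rik, Pter, Usp37 and Dppa2 and 1 probe without a gene symbol, at 0.013 to 0.020. Trim43b was dim in untreated cells, so that its pattern was compared over the 3 siRNA arrays, a choice made after its values were seen. Among 24243 probes its nearest were Obox6, Ccno, Cypt7, Calca and C130026I21Rik, at 0.11 to 0.17. The distances are given as a description.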

How the data were processed

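The authors deposited the output of Agilent Feature Extraction 11.5.1.1, with a processed intensity per spot, already background-subtracted and detrended. The authors also deposited a table of the same signals as a linear ratio to each array's 75th percentile. The methods mention more than one experiment, and only the 4 arrays described were analysed here.

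Signals were divided by each array's 75th percentile, taken over its 43020 non-control spots. Spots flagged as outliers (120 to 152 per array) were left out, spots of a repeated probe were averaged as log2 values, and 0 spots were saturated. A probe passed the filter at or above the 20th percentile on at least 1 array and with a detected or compromised flag on at least 2 arrays (27706 of 39429). Folds over 2 were counted, lower bounds included. No test was run, since each condition has 1 array. The members and lists were chosen with earlier results of these data known, 1 gene of the set is not reported here, and the genes named are Rif1, the members, examples from the lists and the 5 nearest patterns of a probe, with Btbd16 named after its value was seen. The counting step was checked on simulated data. Alternatives were normexp background correction (offset 50), quantile normalization, the deposited ratios, another set of scaling probes, dim signals as given, outlier spots kept and no filter. Python 3.11.15, pandas 2.3.3, numpy 2.4.6, R 4.3.3 and limma 3.58.1 were used.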

Additional observations from a re-analysis of the deposited data

How the results depend on the processing

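A count was held to be moved beyond 1.5 times and a log2 difference beyond 0.256, the SD over probes of control siRNA minus untreated. Quantile normalization, the deposited ratios, scaling over detected probes and kept outlier spots left all 8 counts and all 8 probe values at 72 h within these limits, and the counts over all probes stayed within them without the filter. Quantile normalization nevertheless left 4 member probes over 2-fold higher in place of 5 at 72 h and 3 in place of 4 at 48 h against control siRNA. Normexp background correction with an offset of 50 compresses low signals: it left 1 of the 8 member probes over 2-fold higher at 72 h and 1 at 48 h against control siRNA and 1 at 72 h against untreated cells, and 416, 449, 68 and 421 of all probes at 72 h and 48 h against control siRNA, for control siRNA against untreated cells and for 72 h against untreated cells. Under it Zfp352 from base 1794 was at least 6.65-fold higher at 72 h, Trim43b was at 1.95-fold, and the bounds of Spz1, Ubtfl1 and the Trim43c probes near the transcript start were 1.23 to 1.37. With dim signals as given, 6 of the 8 member probes were over 2-fold higher at 72 h against untreated cells, the counts over all probes were 1264, 1396, 507 and 1418 in the order above, and at 72 h against control siRNA Spz1 was at 6.80-fold, Ubtfl1 at 7.74-fold and the Trim43c probes near the transcript start at 8.77- and 6.40-fold. None of the 8 values at 72 h changed sign under any alternative run. No paired analysis was possible because there is 1 array per condition, and for the same reason no array could be left out. Signal over background limits the values of Zfp352 from base 1794, Spz1, Ubtfl1 and the Trim43c probes near the transcript start on the reference arrays.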
